A study of Saccharomyces cerevisiae with 4 samples.

Results

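The subject is 59 enzymes with which Saccharomyces cerevisiae makes its amino acids. They were chosen by name and grouped into 12 pathways, out of 5539 genes with a named spot on the array. The data are 4 arrays with 2 channels. Each set RNA of BY4741 cells lacking SLT2, taken 4 h after Congo red was added at 30 µg/ml, against RNA of untreated cells from the divided culture. Both were slt2-deleted cells in YEPD, a rich medium, at 24 °C. Slt2 is the kinase at the end of the signalling cascade for cell wall integrity, and Congo red binds chitin and disturbs the wall. The deletion is in both channels and no wild-type RNA was set beside it here, so no value below can be tied to the loss of Slt2. BY4741 also carries deletions of HIS3, LEU2 and MET17, so it cannot complete histidine, leucine or methionine synthesis and takes these amino acids from the medium. Those 3 loci were left out of the set.

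Amino acid synthesis in yeast is under general control. When an amino acid runs short, the kinase Gcn2 raises translation of the transcription factor Gcn4, which activates enzyme genes of many pathways together. Single pathways have their own regulators on top of this, such as Leu3 for leucine, Lys14 for lysine and Met4 for sulfur. Many first enzymes are also inhibited by their end product.

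Values are log2 ratios of Congo red over untreated RNA, with each array's median subtracted, so 0 is the middle spot of the array and a change in total RNA per cell is not seen. The treated RNA was in channel 2 of arrays 1 and 3 and in channel 1 of arrays 2 and 4, which were therefore multiplied by -1. Before that step the Pearson correlation over all spots was 0.27 and 0.31 within a channel order and between -0.38 and -0.19 across orders. A positive value as more treated RNA is a likely reading only. It takes channel 2 as the numerator, and if channel 1 was, every sign below turns at once. If the depositors had already set treated over untreated on each array, the means below would describe channel order. Usable ratios were found for 84.1% to 90.9% of the 12800 spots of an array. The sources used here do not say whether the arrays are separate cultures, so the p-values measure spread between arrays that may be technical. SLT2, deleted in both channels, stood at 1.48, -1.29, -1.51 and -1.14 on arrays 1 to 4 and checks no label. Its spots on array 1 disagreed, at 3.66 and -0.70.

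Each of the 59 genes had 2 spots. On all 4 arrays 53 genes had a value. TRP1, HIS6, ARG8 and SER33 had one on 3 arrays and ARG1 and ARG4 on 2. The same sign on all 4 arrays was found for 23 of the 53 (43.4%), beside 41.7% of all genes, with 13 above 0 on each array (24.5%, beside 20.4%) and 10 below 0 (18.9%, beside 21.3%). These shares are near those of all genes. For most of the 53 genes the ratio was small. Their median of 4-array means was -0.11, against 0.022 for all 4481 genes measured on 4 arrays, and 32 of the 53 lay within 0.3 of 0. A mean beyond 1 in either direction was found for 1 of the 53 genes (1.89%), PRO1, and for 11.4% of all genes. The spread between arrays was also smaller, with a median SD of 0.26 for the enzymes and 0.38 for all genes. An SD over 1 was found for 2 of the 53, TRP2 and MET16 (3.77%), and for 14.8% of all genes. The 2 spots of an enzyme gene lay within 1 log2 unit of each other in 96.2% to 98.2% of cases per array, against 80.8% to 91.7% for all genes with at least 2 spots. The genes had a median length of 1287 bp, against 1249.5 bp for all genes. Spot brightness was not analysed here, so its part in these differences was not tested. The loci HIS3, LEU2 and MET17, deleted in the strain, also had 2 spots within 1 log2 unit on each of the 4 arrays. Their means were 0.59 ± 1.07, 0.14 ± 0.17 and 0.099 ± 0.17. Values from agreeing spots were thus also found at deleted genes. URA3, a further marker locus of the strain, had a single spot on array 2 (3.21) and on array 3 (-1.94). It had no value on arrays 1 and 4.

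**Figure D1:**
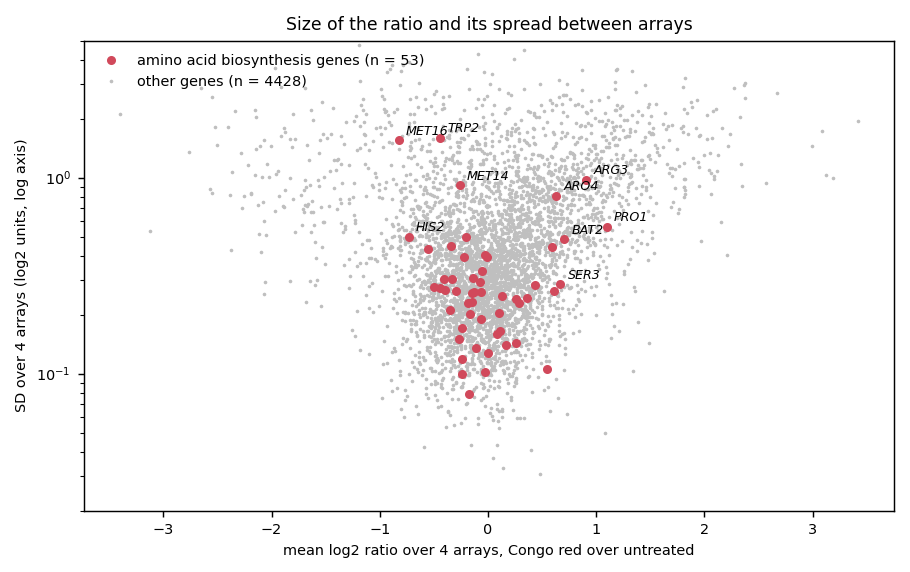
Mean log2 ratio over 4 arrays (horizontal axis) against the SD over the 4 arrays (vertical log axis) for 53 amino acid biosynthesis genes (red) and the other genes measured on all arrays (grey). Most of the enzyme genes lie near 0 with an SD under that of many other genes, and PRO1 is the member beyond 1.

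The fits were made with limma and adjusted over all genes tested. The first took every gene with a value on 4 arrays. It called 0 of the 53 enzymes and 0 of 4481 genes (0%) at an adjusted p under 0.05, and the smallest adjusted p of an enzyme was 0.0818. At an unadjusted p under 0.05 it held 12 of the 53, 7 higher and 5 lower, or 22.6%, beside 27.5% of all genes. The second fit, referred to as the duplicate-spot analysis, kept a value only where 2 spots of the gene lay within 1 log2 unit on that array. It was taken over from earlier work on these data with its calls known. It tested 49 of the enzymes, without ARO2, TRP2, TRP4 and MET14 among those on 4 arrays. It called 7 of the 49 (14.3%), beside 16.8% of the 2804 genes tested, a share near that of all genes. Of these, 5 rose (10.2% of 49, beside 5.31% of all genes) and 2 fell (4.08%, beside 11.5%), and the difference of these shares was not tested. The genes that rose were PRO1, SER3, ASN1, HIS7 and BAT2, and those that fell were HIS2 and GLN1.

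The count and split of calls depend on the processing. With each run of 400 spots centred on its own median, 4 enzymes passed higher (PRO1, SER3, ASN1, HIS7) and 5 lower (TRP5, ILV6, THR1, LYS20, LYS21), 18.4% of 49, beside 21.9% of all genes (6.42% higher and 15.5% lower). After removal of a trend of the ratio with gene length, PRO1 and SER3 passed, both higher (4.08%, beside 6.75% of all genes). With the values as deposited PRO1 alone passed (2.04%, beside 2.10%). With limma's trend and robust options 1 enzyme passed higher and 2 lower (6.12%, beside 12.9%), and with spots within 0.5 log2 units 2 passed higher and 3 lower (13.5% of 37, beside 21.8%). Without array 1 only PRO1 passed (1.89% of 53, beside 9.49% of all genes). Without array 2 PRO1, HIS7 and ARO4 did (6.12% of 49, beside 7.51%). Without array 3 or without array 4 limma called 0 enzymes and 0 genes of the whole table. An unadjusted p under 0.05 was then found for 9 of 49 enzymes (18.4%, beside 25.2% of all genes) and for 16 of 50 (32.0%, beside 29.9%).

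Proline is made from glutamate, and the gene for the first step had the largest mean of the 53 enzymes. PRO1, the gamma-glutamyl kinase that takes this first step, had log2 ratios of 0.39, 1.28, 0.99 and 1.74 on arrays 1 to 4. All 4 were above 0, and array 1 was the lowest. The mean was 1.10 ± 0.56 (SD, n = 4; 2.14-fold), with an adjusted p of 0.0173 in the duplicate-spot analysis (limma). Arrays 1 and 3 averaged 0.69 and arrays 2 and 4 averaged 1.51, so the size of the value differed between the channel orders. The spots on array 1 disagreed, at 0.89 and -0.11, a gap just inside the limit of 1 log2 unit. PRO1 still passed without array 1 (mean 1.33, adjusted p = 0.0221) and without array 2, but not without array 3 (adjusted p = 0.0892) or array 4 (0.078).

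The later proline enzymes had smaller ratios. PRO2, the gamma-glutamyl phosphate reductase, ranged from 0.044 to 0.35 and was above 0 on all 4 arrays (mean 0.16 ± 0.14). PRO3, which makes proline from pyrroline carboxylate, was below 0 on all 4, from -0.62 to -0.17 (mean -0.35 ± 0.21). Neither passed, with adjusted p of 0.384 and 0.105 in the duplicate-spot analysis. The 3 genes of the pathway thus had means of different sign and size.

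Serine is made from a glycolytic intermediate by 3-phosphoglycerate dehydrogenase, which SER3 and SER33 both encode. SER3 had ratios of 0.67, 0.85, 0.26 and 0.89 on arrays 1 to 4. It was above 0 on every array and lowest on array 3, with a mean of 0.67 ± 0.29 (1.59-fold, adjusted p = 0.0249, duplicate-spot analysis, limma). SER33 could not be placed. It had no value on array 2 and stood at -2.49 on array 1, 2.38 on array 3 and 3.57 on array 4. Its spots on array 1 were -1.60 and -3.39, and those on array 3 were 3.30 and 1.46, so both the spots and the arrays disagreed. SER1, the aminotransferase of the second step, was above 0 on all 4 arrays, between 0.15 and 0.45 (mean 0.26 ± 0.14), without passing (adjusted p = 0.178). SER2, the phosphatase of the last step, lay between -0.16 and 0.081, with both signs on the 4 arrays.

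**Figure D2:**
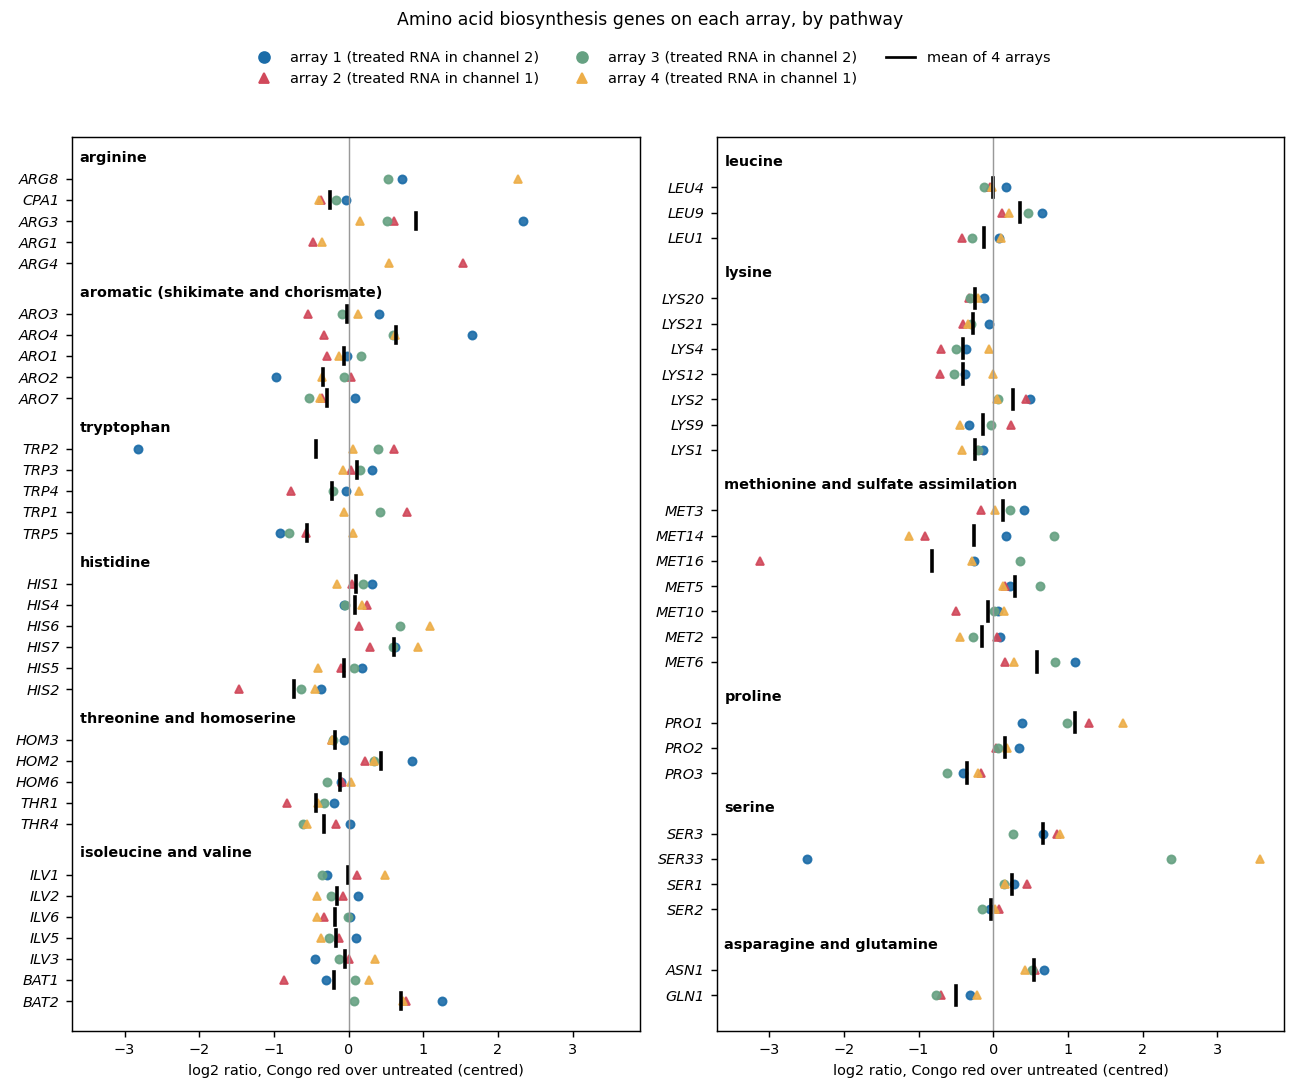
Log2 ratio of Congo red over untreated RNA (horizontal axis) for each of the 59 genes, by pathway, with 1 symbol per array and a black bar at the mean where all 4 arrays gave a value. Circles are arrays with treated RNA in channel 2 and triangles those with it in channel 1. PRO1, SER3 and ASN1 lie above 0 on every array, GLN1 and HIS2 below, and SER33, TRP2 and MET16 each spread over more than 3 log2 units.

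Asparagine and glutamine each get an amide group from an enzyme in this set, and the pair had opposite signs on every array. ASN1, an asparagine synthetase, had ratios of 0.69, 0.56, 0.52 and 0.43 on arrays 1 to 4. These lay close together, and the mean was 0.55 ± 0.11 (1.46-fold, adjusted p = 0.0253, duplicate-spot analysis, limma). ASN2, a second asparagine synthetase gene outside the set, was also above 0 on all 4 arrays, between 0.13 and 1.00. Its mean was 0.44 ± 0.39 and it did not pass (adjusted p = 0.105, same analysis). Whether ASN1 and ASN2 bind each other's spots was not tested. GLN1, the glutamine synthetase, had ratios of -0.32, -0.70, -0.77 and -0.22. All were below 0, with arrays 2 and 3 lower than arrays 1 and 4. The mean was -0.50 ± 0.28 (0.706-fold) and the adjusted p of 0.0493 was the largest among the 7 called enzymes. Next above the threshold stood MET6, at an adjusted p of 0.0581.

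The histidine pathway held both a rise and a fall. HIS7, the synthase that closes the imidazole ring, had ratios of 0.63, 0.29, 0.59 and 0.93 on arrays 1 to 4. It was above 0 on each, with a mean of 0.61 ± 0.26 (1.53-fold, adjusted p = 0.0285, duplicate-spot analysis, limma). HIS2, the histidinol phosphatase, had ratios of -0.37, -1.46, -0.63 and -0.46. Array 2 was far below the others, where both spots read low (-1.50 and -1.42), and the mean was -0.73 ± 0.50 (0.602-fold, adjusted p = 0.0402). Without array 2 it was -0.49. With runs of 400 spots centred the mean of HIS2 was -0.19 (adjusted p = 0.217), so its size depends on where the array's middle is set around these spots.

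The other histidine genes had means near 0. HIS1, the first enzyme of the pathway, lay between -0.16 and 0.32 (mean 0.10 ± 0.20). HIS4, whose protein carries several activities of the pathway, lay between -0.060 and 0.25 (mean 0.080 ± 0.16). HIS5, an aminotransferase, lay between -0.41 and 0.19 (mean -0.061 ± 0.26). Each had both signs among its arrays. HIS6, the isomerase that acts before the ring-closing step, had 0.14, 0.69 and 1.09 on arrays 2 to 4 and no value on array 1. The median of the 5 genes on 4 arrays was 0.080, and it took the opposite sign with runs of 400 spots centred (-0.073) and with the length trend removed (-0.072).

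**Figure D3:**
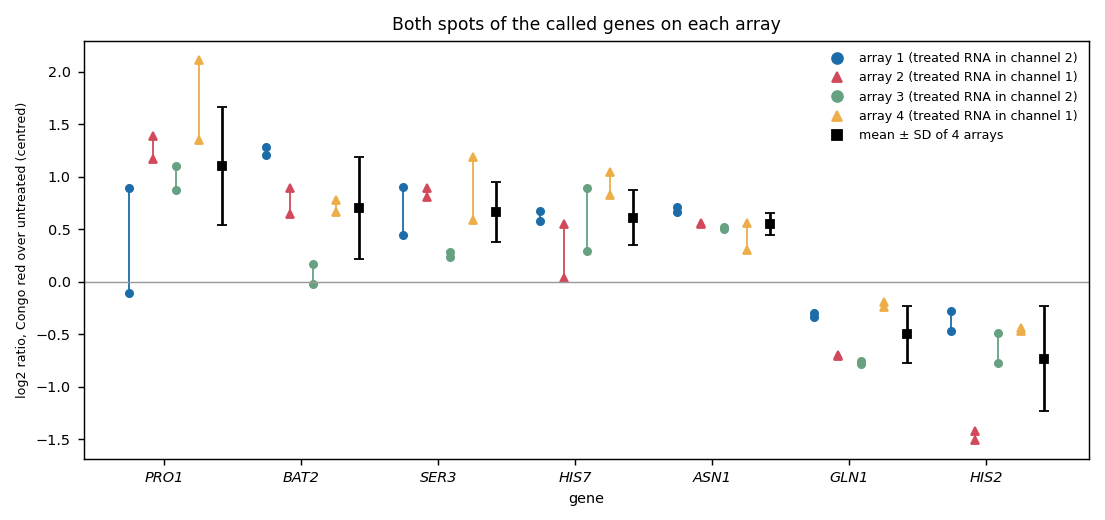
Both spots on each array for the 7 enzymes called in the duplicate-spot analysis. The vertical axis is the log2 ratio of Congo red over untreated RNA, vertical lines join the 2 spots of an array, and black squares are the mean ± SD over 4 arrays. The pairs of GLN1 lie within 0.053 of each other on every array, those of PRO1 on array 1 are 0.995 apart, and HIS2 has a low pair on array 2.

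Isoleucine and valine share a set of mitochondrial enzymes, and these had small ratios. ILV2 and ILV6, the catalytic and regulatory subunits of acetolactate synthase, had means of -0.15 ± 0.23 and -0.18 ± 0.23. The reductoisomerase gene ILV5 stood at -0.16 ± 0.20. Each of the 3 was below 0 on 3 of 4 arrays. ILV3, the dihydroxyacid dehydratase, and ILV1, the threonine deaminase that starts isoleucine synthesis, had means of -0.054 ± 0.33 and -0.010 ± 0.39. Both were below 0 on arrays 1 and 3 and above 0 on arrays 2 and 4, so their sign went with channel order. The last step is carried out by BAT1 in mitochondria and BAT2 in the cytosol. BAT2 had ratios of 1.25, 0.77, 0.071 and 0.72 on arrays 1 to 4. It was above 0 on each, highest on array 1 and close to 0 on array 3, with a mean of 0.70 ± 0.48 (1.63-fold, adjusted p = 0.0422, duplicate-spot analysis, limma). BAT1 had -0.30, -0.86, 0.085 and 0.27, with both signs and a mean of -0.20 ± 0.50, or 0.019 without array 2.

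Leucine synthesis branches from valine at isopropylmalate synthase, made from LEU4 and LEU9. LEU9 was above 0 on every array, between 0.11 and 0.65 (mean 0.36 ± 0.24, adjusted p = 0.109 in the duplicate-spot analysis). LEU4 lay between -0.12 and 0.18 with a mean of -0.0002 ± 0.13. LEU1, the isopropylmalate isomerase, had 2 arrays above 0 and 2 below (mean -0.13 ± 0.26).

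Lysine was the pathway with the most genes below 0 on every array. It is made in fungi from 2-oxoglutarate through alpha-aminoadipate. Of its 7 genes 6 had a mean below 0, 4 of them were below 0 on all 4 arrays, and none passed in either fit. Beside this, 21.3% of all genes were below 0 on all 4 arrays. LYS20 and LYS21, the homocitrate synthases of the first step, had means of -0.24 ± 0.10 and -0.27 ± 0.15. On arrays 1 to 4 LYS20 had -0.12, -0.33, -0.31 and -0.20, and LYS21 had -0.056, -0.40, -0.30 and -0.33. The homoaconitase gene LYS4 ranged from -0.69 to -0.054 (mean -0.40 ± 0.27), and LYS12, the homoisocitrate dehydrogenase, from -0.71 to 0.0007 (mean -0.40 ± 0.30). The last 2 enzymes pass through saccharopine. LYS9 lay on both sides of 0 (mean -0.14 ± 0.31), and LYS1 was below 0 on all 4 arrays (mean -0.24 ± 0.12). LYS2, the aminoadipate reductase, was the exception, above 0 on each array between 0.045 and 0.50 (mean 0.26 ± 0.24). Medians of the 7 genes were -0.14, -0.33, -0.30 and -0.20 on arrays 1 to 4. Over the 11 other settings the median of the pathway stayed below 0, between -0.32 and -0.15. The medians of tryptophan (-0.47 to -0.12) and of threonine and homoserine (-0.30 to -0.095) did so too. So did that of all enzymes in the fit of all genes (-0.19 to -0.029), but not in the duplicate-spot analysis (-0.15 to 0.017). The arginine (0.06 to 0.48) and serine (0.14 to 0.34) medians stayed above 0. That of arginine rested on 2 genes, CPA1 and ARG3, with means of opposite sign.

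Threonine and methionine share the homoserine branch from aspartate. HOM3, the aspartate kinase at its start, had -0.062, -0.22, -0.21 and -0.23 on arrays 1 to 4, with array 1 nearest to 0. The next gene, HOM2 for aspartate semialdehyde dehydrogenase, was above 0 on every array, at 0.85, 0.21, 0.35 and 0.34 (mean 0.44 ± 0.28, adjusted p = 0.0751, duplicate-spot analysis). HOM6, the homoserine dehydrogenase, lay between -0.29 and 0.034 (mean -0.11 ± 0.14). The genes for the enzymes that lead on to threonine had means below 0. THR1, the homoserine kinase, was below 0 on all 4 arrays, from -0.83 to -0.19 (mean -0.44 ± 0.27, adjusted p = 0.071). THR4, the threonine synthase, was below 0 on 3 (mean -0.33 ± 0.30).

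In sulfate assimilation and methionine synthesis several ratios differed between the channel orders. MET14, the adenylylsulfate kinase, had 0.17 and 0.82 on arrays 1 and 3, against -0.91 and -1.13 on arrays 2 and 4, so its sign followed the channel order. MET16, the reductase of the next step, had -0.26 and 0.36 on arrays 1 and 3, against -3.12 and -0.28 on arrays 2 and 4. Its mean of -0.83 ± 1.56 rests on array 2, where its spots read -2.65 and -3.59, and without array 2 the mean was -0.062. MET3, the ATP sulfurylase of the first step, had a mean of 0.13 ± 0.25. The sulfite reductase subunits differed a little, with MET5 above 0 on all 4 arrays (mean 0.29 ± 0.23) and MET10 at -0.070 ± 0.29. MET2, the homoserine acetyltransferase, stood at -0.14 ± 0.26. MET6, the methionine synthase, was above 0 on every array, at 1.10, 0.16, 0.82 and 0.28 on arrays 1 to 4 (mean 0.59 ± 0.44). Arrays 1 and 3 averaged 0.96 for MET6 and arrays 2 and 4 averaged 0.22. MET6 passed in the duplicate-spot analysis when channel order was given its own coefficient (adjusted p = 0.0215), as did ARG3 and TRP5 (0.0436 and 0.0362).

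Over the 53 enzymes, arrays 1 and 3 did not overlap arrays 2 and 4 in 26 genes (49.1%), beside 36.4% of all genes. Of the 26, 17 had the higher ratio on arrays 1 and 3 (65.4%, beside 57.8% of such genes in the whole table). Among these 26, the largest gaps were those of MET16 (1.74), MET14 (1.51), PRO1 (-0.81) and MET6 (0.74), given as the mean of arrays 1 and 3 minus that of arrays 2 and 4. The 7 called enzymes each had the same sign on all 4 arrays, so their signs in the 2 orders could not differ. The part of the dyes in these gaps was not tested. Across the 53 enzymes the arrays were correlated pair by pair with Pearson's r from 0.25 to 0.51 and Spearman's rho from 0.43 to 0.64. The genes share the arrays and are not independent replicates.

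**Figure D4:**
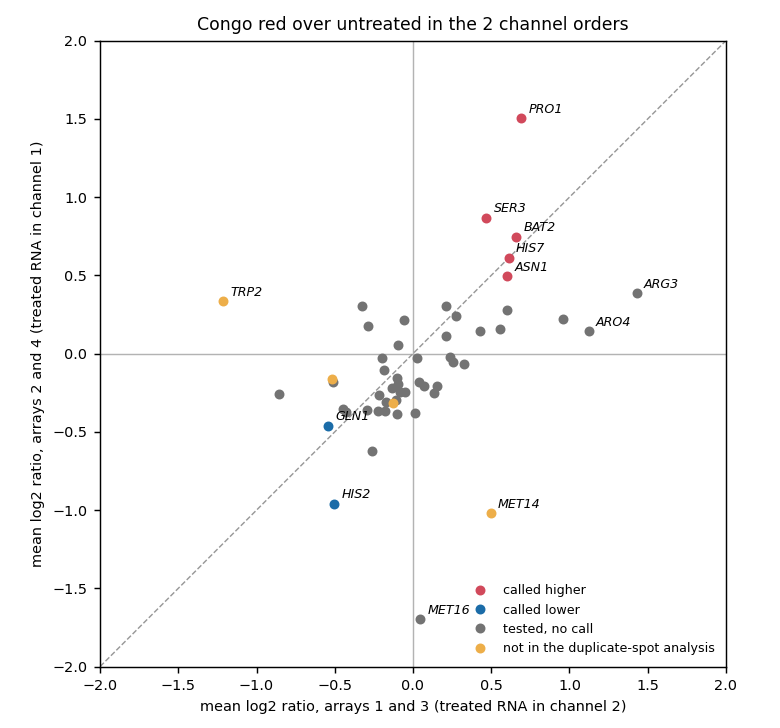
Mean log2 ratio of Congo red over untreated RNA on arrays 1 and 3 (horizontal axis) against that on arrays 2 and 4 (vertical axis) for the 53 enzymes with 4 values, with the line of equality dashed and the names of the called genes and of those that differ by over 0.8. The 7 called genes each have the same sign on all 4 arrays, so their signs in the 2 orders cannot differ. MET14, MET16 and TRP2 lie far from the line.

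Aromatic amino acids are made through the shikimate pathway and chorismate. ARO3 and ARO4 encode the first enzyme in forms inhibited by phenylalanine and by tyrosine. ARO4 had ratios of 1.65, -0.33, 0.59 and 0.62 on arrays 1 to 4, with array 1 high and array 2 below 0 (mean 0.63 ± 0.81, adjusted p = 0.144 in the duplicate-spot analysis). Without array 2 it passed that analysis (mean 0.95, adjusted p = 0.0449). ARO3 had 0.41, -0.55, -0.094 and 0.13, with a mean of -0.026 ± 0.40. ARO1, one long protein with several activities of the pathway, had a mean of -0.067 ± 0.19. The chorismate synthase gene ARO2 stood at -0.34 ± 0.45, or -0.13 without array 1, where it had a single spot. ARO7, the chorismate mutase gene on the branch to phenylalanine and tyrosine, stood at -0.29 ± 0.26.

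On the branch to tryptophan, TRP5, the tryptophan synthase of the last step, was below 0 on arrays 1 to 3 (-0.92, -0.57 and -0.79) and at 0.058 on array 4. Its mean was -0.56 ± 0.43 and it did not pass (adjusted p = 0.0659, duplicate-spot analysis). TRP2, the anthranilate synthase of the first step, stood at -2.82 on array 1 from a single spot and at 0.61, 0.39 and 0.058 on arrays 2 to 4. Its mean of -0.44 ± 1.60 turned to 0.35 without array 1. TRP3, a bifunctional partner of Trp2, had 0.11 ± 0.17 and TRP4, the phosphoribosyl transferase, -0.22 ± 0.39. The TRP4 mean was -0.038 without array 2, and its spots on array 1 had opposite signs (-0.76 and 0.69). TRP1, the isomerase between Trp4 and Trp3, had 0.79, 0.42 and -0.058 on arrays 2 to 4.

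Arginine genes were the least often measured, with 2 of 5 on all arrays. CPA1, the small subunit of carbamoyl phosphate synthase, was below 0 on every array (mean -0.24 ± 0.17). ARG3, the ornithine carbamoyltransferase, had 2.34, 0.61, 0.52 and 0.16 on arrays 1 to 4. It was above 0 on each, but array 1 set most of the mean of 0.91 ± 0.98, which was 0.43 without it, and it did not pass (adjusted p = 0.0885). ARG8, the acetylornithine aminotransferase, had 0.71, 0.53 and 2.26 on arrays 1, 3 and 4. On arrays 2 and 4, ARG4, the argininosuccinate lyase, had 1.53 and 0.55, and ARG1, which acts just before it, had -0.48 and -0.36.

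Where 2 genes encode enzymes for the same reaction, their ratios were set against each other on each array. These differences are given without a test, and the smallest p that an exact two-sided sign-flip permutation test over 4 arrays can give is 0.125. BAT2 stood above BAT1 by 1.55, 1.63 and 0.45 on arrays 1, 2 and 4 and was level with it on array 3 (-0.015), a mean difference of 0.90 ± 0.81 (SD, n = 4). ARO4 stood above ARO3 on all 4 arrays, by 0.66 ± 0.44. LEU9 stood above LEU4 on all 4, by 0.36 ± 0.20, and by 0.10 with runs of 400 spots centred. LYS21 and LYS20 were the pair closest together, with differences of 0.061, -0.069, 0.012 and -0.13. SER3 minus SER33, without a value on array 2, was 3.17, -2.11 and -2.69 on arrays 1, 3 and 4. Similar genes may bind each other's spots, and how alike these sequences are was not analysed here.

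**Figure D5:**
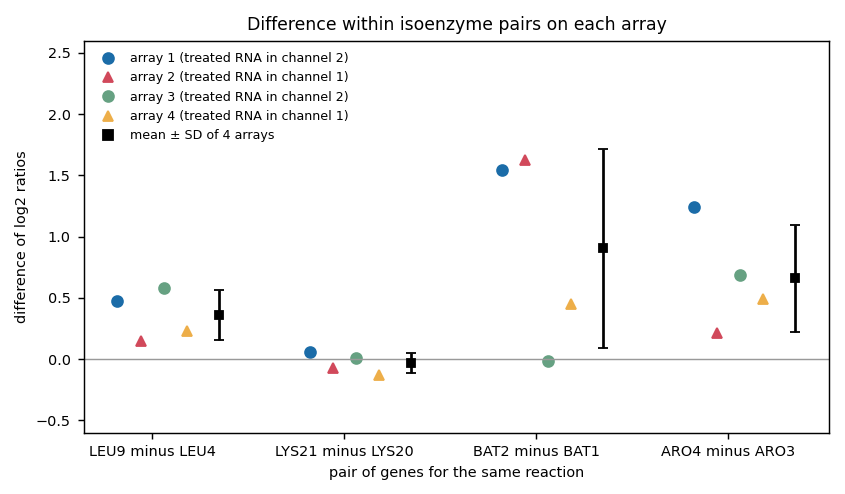
Difference of the log2 ratios of 2 genes for the same reaction on each array, first gene minus second, with the mean ± SD over 4 arrays as black squares. Only pairs with a value on all 4 arrays are drawn, so SER3 and SER33 are left out. LYS21 and LYS20 differ by less than 0.14 on every array, while the points of BAT2 minus BAT1 run from -0.015 to 1.63.

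Regulators and further enzymes of amino acid metabolism were read from a list of 67 genes, 66 of them with a named spot. GCN4, the activator of general control, was below 0 on all 4 arrays, at -0.32, -0.76, -0.65 and -0.042 (mean -0.44 ± 0.33), and did not pass (adjusted p = 0.0848, duplicate-spot analysis). Gcn4 is controlled mainly at translation, which these arrays do not measure. None of the 24 regulators passed limma's test in either fit, with 20 tested in the fit of all genes and 12 in the duplicate-spot analysis. Of the 20, 3 had an unadjusted p under 0.05, beside 27.5% of all genes. On all 4 arrays 3 of the 20 were above 0 and 3 below, beside 20.4% and 21.3% of all genes. None of the 32 further synthesis enzymes passed either, with 27 tested in the fit of all genes and 19 in the duplicate-spot analysis. Of the 27, 3 had an unadjusted p under 0.05, beside the same 27.5%. In the duplicate-spot analysis 16.8% of all genes were called, and 5.31% of all genes were called higher. Among 11 genes for breakdown, 6 of them tested there, 1 rose. This was PDC5, a pyruvate decarboxylase that also acts in the breakdown of amino acids, at 0.56, 0.29, 0.60 and 0.77 on arrays 1 to 4 (mean 0.55 ± 0.20, adjusted p = 0.0296, limma).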

How the data were processed

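The authors deposited log2 ratios of the 2 channels for 12800 spots on 4 arrays. The numerator, dyes, scanning, filters and normalization were not given in the sources used here. Signal over background was not analysed here. The number of arrays limits the precision. The top value, 16.61, recurred on every array (31 to 68 spots) and was set to missing as a ratio without a finite value. No spot of the 59 enzymes held it. Array medians as deposited (-0.25 to 0.64) were subtracted and arrays 2 and 4 turned. Spots were named through the platform annotation, with symbols updated from the RefSeq gene table. Spots of a gene were averaged, and the difference of the mean ratio from 0 was tested by limma 3.58.1 (R 4.3.3; lmFit, eBayes, Benjamini-Hochberg over all genes tested).

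All arrays formed 1 group. The members, the lists of regulators and further enzymes, the fits and the alternatives were chosen with earlier results of these data known. Every member is named, the called ones with full statistics. Of the other genes GCN4, those called, ASN2, the deleted SLT2, HIS3, LEU2 and MET17 and the marker URA3 are given. Alternatives covered centring, gene length, spot averaging and filter, missing values, channel order, turning, limma's prior and each array left out. A planned motif search in promoters was not made, as no promoter sequences were used here.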

Additional observations from a re-analysis of the deposited data

Results flagged for a closer look

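In 2 of the 53 enzymes with 4 values, 1 array stood far from the others by Dixon's criterion, where chance gives about 1 in 20. TRP2 was at -2.82 on array 1, from 1 spot, and its gap to the nearest array was 0.839 of the range. HOM3 was at -0.062 on array 1, nearer to 0 than on the other arrays, with a gap of 0.904 of a narrow range.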

How the results depend on the processing

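With the arrays turned, all 7 called enzymes kept their sign under every setting that gave a value. Each had the same sign on all 4 arrays, so leaving out an array could not change it. The limma options, channel-order coefficient, spot averaging and filter and the rule on missing values left these means unchanged. Only the settings for centring and gene length could have turned a sign. With the arrays not turned 5 of the 7 means had the opposite sign. In the duplicate-spot analysis the count of 7 called enzymes changed with the setting, as did the share of all genes called. It was 1 with values as deposited, 2 with the length trend removed and 3 with trend and robust options. With genes on at least 3 arrays it was 4 (7.41%, beside 12% of all genes). With spots within 2 log2 units it was also 4 (7.84%, beside 10.6%). It was 5 with spots within 0.5 log2 units and 0 with the arrays not turned, where no gene of the whole table passed. It was 9 with runs of 400 spots centred and 9 with a coefficient for channel order (18.4% each, beside 21.9% and 19.5%). Leaving out each array in turn gave 0 to 3 calls. There was none without array 3 or without array 4, where no gene of the whole table passed. It was 1 without array 1 (1.89%, beside 9.49%) and 3 without array 2 (6.12%, beside 7.51%). Among settings with the arrays turned PRO1 passed in 10 of 12 and GLN1 in 3 of 13. In the fit of all genes no enzyme passed under any setting. That fit called 2.08% of all genes with values as deposited, 4.78% with runs of 400 spots centred and 0.559% with the length trend removed. The median over enzymes, -0.11 there and -0.067 in the duplicate-spot analysis, was -0.029 and 0.017 with values as deposited, and -0.19 and -0.15 with the length trend removed. That removal gave medians of -0.072 for histidine and -0.30 for threonine and homoserine genes. With runs of 400 spots centred, medians were -0.073 for histidine, -0.28 for threonine and homoserine, 0.18 for leucine, -0.15 for lysine and -0.018 for proline genes, and LEU9 minus LEU4 was 0.10. The cause was not tested. No paired analysis was possible because the arrays form 1 group and each already sets both RNAs against each other.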
